A study of Mus musculus with 8 samples.

Results

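A set of 10 genes of macroautophagy was followed through the response of mouse hepatocytes to the fasting hormone glucagon and to GW4064, a synthetic agonist of the bile acid receptor FXR. None of them passed the test on a comparison of treatments when each group was given 1 mean over the 8 arrays. The largest difference was in Ulk1, the kinase that starts autophagy. Its signal was higher on the array with glucagon in each of the 4 matched pairs of arrays, as were 15.4% of all tested genes. Ulk1 passed with the experiment as a fixed block but not without it or with the experiment as a random block. Sqstm1, the cargo receptor p62, and Wipi1, a phospholipid reader of the forming membrane, were lower with glucagon in each of the 4 pairs. So were 16.7% of all tested genes, and neither member passed in either model. Gabarapl1, Map1lc3b, Pik3c3 and Becn1 each differed with glucagon in opposite directions in the 2 pools when GW4064 was absent.

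The members were Ulk1, Pik3c3, Becn1, Wipi1, Atg5, Map1lc3a, Map1lc3b, Gabarapl1, Sqstm1 and Tfeb, which are 10 of the 22180 genes to which the annotation of the mouse gene array gave a probe set with exactly 1 symbol. Each member had 1 such probe set. A further probe set of Becn1, assigned to another gene as well, was not used. Of the 10 members 9 exceeded the 40th percentile of the array on at least 2 arrays and were tested among 13845 genes. Tfeb lay below that level on all 8 arrays and was not tested.

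Hepatocytes in primary culture, taken from C57BL/6J males, spent 6 h in 1 of 4 conditions: DMSO as solvent control, 100 nM glucagon, 2 µM GW4064, or glucagon and GW4064 at the same doses. The medium of all 4 groups held 100 nM dexamethasone, a synthetic glucocorticoid, so no group was free of glucocorticoid. Every group had 2 samples, 1 from each of 2 experiments. Each experiment used cells pooled from 3 mice, with 2 technical replicates pooled per sample and 300 ng of RNA labelled, so a value describes a pool and the spread over single mice was not measured. With 1 mean per group, p-values therefore measure the spread between 2 cell pools. With the experiment as a block, and in the comparison of the experiments, they measure the spread left once the difference between pools is taken out. Values are log2 signals as deposited, 1 unit being a doubling of signal, and signals of different probe sets are not compared, since each probe set has its own brightness.

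Macroautophagy encloses cytoplasm in a double membrane, the autophagosome, and delivers it to the lysosome. The ULK kinase complex starts the process under the control of mTORC1 and AMPK, the class III phosphatidylinositol kinase complex with Beclin marks the membrane with a phospholipid, and WIPI proteins read that mark. The ATG5 conjugation machinery then attaches LC3 and GABARAP proteins to the membrane, where they bind cargo receptors such as p62, and TFEB drives genes of autophagy and lysosomes. In liver, fasting and glucagon are classically linked to autophagy, while feeding and FXR are linked to its restraint. Transcript levels do not measure the flux through this pathway.

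All 8 arrays were alike in overall signal, with medians of 3.42 to 3.57. The GW4064 array of experiment 2 stood apart, with the highest median and pairwise correlations of 0.975 to 0.985 where pairs of the other 7 arrays had 0.976 to 0.997. Textbook targets of glucagon rose: averaged over GW4064, Pck1 rose by 5.15 (SE 0.28) and G6pc by 4.08 (SE 0.15), with limma adjusted p-values of 0.000571 and 0.000131. The FXR targets Nr0b2 and Abcb11 differed by 0.42 (SE 0.17) and 0.75 (SE 0.29) with GW4064 against DMSO and did not pass (limma adjusted p = 0.999 for each). Of 7 hepatocyte markers 6 had a probe set, all above the filter level on every array, and their mean signal was 10.35 to 10.85. Of 5 endothelial markers all were above it, with a mean of 5.45 to 5.55 in experiment 1 and 5.03 to 5.06 in experiment 2. The 6 Kupffer cell markers had means of 4.44 to 4.73, 2 of them (Cd68 and Marco) being above the filter level on every array while Adgre1 reached it on 2 arrays. The 4 measured cholangiocyte markers had means of 3.97 to 4.51 without and 3.79 to 3.92 with glucagon. That gap came mostly from Sox9 (-1.32), and Krt19 and Krt7 stayed at or under a signal of 3.48. Among 6 stellate cell markers and 6 lymphocyte and neutrophil markers, 3 of each were below the filter level on all arrays, with means of 3.20 to 3.37 and 2.94 to 3.04. In such bulk samples, fewer cells of a type and less RNA per cell cannot be told apart.

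RefSeq promoter windows of 300 bases, which run from 250 bases before a gene's start to 50 after it, were given for 7 members. Becn1, Map1lc3a and Pik3c3 had no window. Both strands of each window were searched for the cyclic AMP response element (CRE, TGACGTCA), through which the glucagon pathway is known to act, for its half-site TGACG, which the full element contains, for the E-box CACGTG and the CLEAR core TCACGTGA, which contains an E-box and is the site known for TFEB, for the FoxO and FOXA core TGTTTAC, and for the nuclear receptor half-site AGGTCA. The GC box GGGCGG was added after the windows had been seen. The sequences of Ulk1, Wipi1 and Sqstm1 are shown because these 3 members had the smallest p-values with glucagon. They are the 250 bases before the start, written 5′ to 3′ on the gene's strand from the GRCm38.p6 assembly, at chr5:110810082-110810331, chr11:109611390-109611639 and chr11:50210821-50211070. All 3 genes lie on the minus strand. Capitals mark the GC box on either strand.
Ulk1: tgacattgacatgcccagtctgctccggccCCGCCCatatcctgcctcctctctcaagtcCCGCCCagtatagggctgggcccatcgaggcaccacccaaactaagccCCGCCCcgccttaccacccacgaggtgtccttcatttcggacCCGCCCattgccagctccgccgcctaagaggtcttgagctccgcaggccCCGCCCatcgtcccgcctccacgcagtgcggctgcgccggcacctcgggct
Wipi1: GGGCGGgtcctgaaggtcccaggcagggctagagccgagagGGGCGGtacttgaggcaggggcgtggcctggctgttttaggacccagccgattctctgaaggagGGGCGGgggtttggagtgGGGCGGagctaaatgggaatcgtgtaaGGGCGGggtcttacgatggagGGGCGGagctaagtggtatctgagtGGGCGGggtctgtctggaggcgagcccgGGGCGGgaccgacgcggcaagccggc
Sqstm1: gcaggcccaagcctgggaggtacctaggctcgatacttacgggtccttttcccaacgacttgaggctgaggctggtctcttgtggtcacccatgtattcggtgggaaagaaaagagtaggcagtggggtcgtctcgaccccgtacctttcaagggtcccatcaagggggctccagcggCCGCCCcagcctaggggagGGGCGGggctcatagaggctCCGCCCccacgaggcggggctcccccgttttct
Ulk1 held 5 GC boxes and no match to any other motif searched. Wipi1 held 9 GC boxes, the last at base 16 after the start and so not printed, and Sqstm1 held 3, again with no match to the other motifs. A GC box is common, being found in 35.7% of the 32851 RefSeq windows. Every member window searched held at least 1, including the 3 alternative windows of Tfeb.

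Atg5 was the member with a full CRE, which lies across its start. It is shown with the bases around the start, chr10:44268299-44268358 on the plus strand of GRCm38.p6, with the GC box, the E-box and the CRE in capitals in that order.
Atg5: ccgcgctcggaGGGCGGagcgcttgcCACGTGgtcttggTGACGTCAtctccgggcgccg
A full CRE was found in 1.79% of all windows, its half-site in 20.8% and the E-box in 7.15%. Besides Atg5, the window of Map1lc3b held the half-site, at 15 bases before its start. The CLEAR core (0.974% of windows), the FoxO and FOXA core (3.65%) and the nuclear receptor half-site (16.3%) were in no member window. A match describes letters in a window and is not evidence of binding.

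Ulk1 encodes the serine/threonine kinase at the head of the initiation complex. In experiment 1 its signal was 5.96 with DMSO, 6.93 with glucagon, 5.77 with GW4064 and 6.74 with both agents. In experiment 2 the values were 6.89, 7.24, 6.40 and 7.08 in that order. Within each pool the arrays with glucagon were the highest, but the DMSO array of experiment 2 exceeded the combined array of experiment 1, so the 4 arrays with glucagon overlapped the 4 without. Group means were 6.42 ± 0.65 (SD, n = 2) with DMSO, 7.09 ± 0.22 with glucagon, 6.08 ± 0.45 with GW4064 and 6.91 ± 0.24 with both. Against DMSO, glucagon gave a difference of 0.66 (SE 0.34, 95% interval -0.14 to 1.46, limma adjusted p = 0.840). Averaged over the absence and presence of GW4064, the difference was 0.74 (SE 0.24, 0.18 to 1.31), a 1.67-fold higher signal, with a limma adjusted p of 0.214. With the experiment as a block Ulk1 rose: the same difference had an SE of 0.12 and an interval of 0.46 to 1.03, and its adjusted p was 0.0221. Without the GW4064 array that stood apart, the difference was 0.90 without the block (adjusted p = 0.115) and 0.77 with it (adjusted p = 0.0216). With the experiment as a random block the call was lost (adjusted p = 0.0689), and of 17 alternatives these 2 with the fixed block gave a call. Leaving out 1 array at a time, without the block, gave differences of 0.51 to 0.97. Each of these fits leaves 1 array in a group and unbalances the pools, so the difference between pools enters the range. They do not test the call made with the block.

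Pik3c3 encodes the lipid kinase VPS34 and Becn1 its partner Beclin. The Pik3c3 signals with DMSO, glucagon, GW4064 and both were 6.45, 6.53, 6.18 and 6.39 in experiment 1 and 6.62, 6.29, 5.93 and 6.38 in experiment 2. Its GW4064 arrays were the lowest in both pools, while glucagon went up in one pool and down in the other. Becn1 had signals of 7.03, 7.30, 7.02 and 7.33 in experiment 1, and of 7.21, 7.12, 7.19 and 7.21 in experiment 2. In the first pool its arrays with glucagon were the higher ones, and in the second the 4 treatments hardly differed. Averaged over GW4064, glucagon gave 0.10 (SE 0.10, 95% interval -0.15 to 0.35) for Pik3c3 and 0.13 (SE 0.10, -0.10 to 0.36) for Becn1, and neither passed. Pik3c3 with GW4064 against DMSO differed by -0.48 (SE 0.15, -0.83 to -0.13). That was the smallest p of a member for GW4064, 0.0141 before adjustment and 0.999 after it by limma.

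Wipi1 encodes a protein that binds the phospholipid made by VPS34. Its signals were 5.33, 5.22, 5.29 and 5.22 for DMSO, glucagon, GW4064 and both in experiment 1, and 5.66, 5.08, 5.55 and 4.92 in experiment 2. All 4 arrays with glucagon were below all 4 without it, which held for no other member. Such a separation, in either direction, was found in 13% of all tested genes. The gap was wider in experiment 2. The difference averaged over GW4064 was -0.34 (SE 0.13, -0.64 to -0.05), and its limma adjusted p was 0.273, or 0.168 with the block.

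Atg5 encodes the protein that, joined to ATG12, attaches LC3 to membranes. Its signals were 7.05, 7.11, 6.94 and 7.02 in experiment 1 and 7.33, 7.37, 7.12 and 7.37 in experiment 2, again for DMSO, glucagon, GW4064 and both. All 4 values of experiment 2 lay above those of experiment 1, and within a pool the treatments were close together. The glucagon difference was 0.11 (SE 0.13, 95% interval -0.20 to 0.41, limma adjusted p = 0.761). It was positive in each of the 4 pairs, from 0.04 to 0.24, and 15.4% of all tested genes were higher in 4 of 4.

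Map1lc3a and Map1lc3b encode LC3 proteins, and Gabarapl1 a member of the GABARAP branch of the same family. Map1lc3a had signals of 5.49, 5.51, 5.44 and 5.66 in experiment 1 and 5.43, 5.60, 5.28 and 5.36 in experiment 2. The whole range of this probe set was small, and in each pool the GW4064 array was the lowest. Map1lc3b had signals of 9.01, 9.44, 8.99 and 9.27 in experiment 1 and 9.26, 9.06, 8.66 and 9.39 in experiment 2. Its lowest value was on the GW4064 array of experiment 2, the array that stood apart, and its glucagon arrays fell on opposite sides of DMSO in the 2 pools. Gabarapl1 had signals of 7.96, 8.58, 7.62 and 8.52 in experiment 1 and 8.77, 8.51, 8.17 and 8.51 in experiment 2. The 4 arrays with glucagon lay within a narrow band, whereas those without spread widely around it, from the lowest value on GW4064 in experiment 1 to the highest on DMSO in experiment 2. Averaged over GW4064, the glucagon differences were 0.12 (SE 0.10, -0.12 to 0.36) for Map1lc3a, 0.31 (SE 0.13, 0.00 to 0.62) for Map1lc3b and 0.40 (SE 0.20, -0.07 to 0.87) for Gabarapl1. Their limma adjusted p-values were 0.636, 0.345 and 0.417.

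Sqstm1 encodes p62, which links ubiquitinated cargo to LC3 and is itself degraded by autophagy as a protein. Its signals were 11.91, 11.63, 11.93 and 11.67 with DMSO, glucagon, GW4064 and both in experiment 1 and 11.65, 11.39, 12.06 and 11.46 in experiment 2. Within each pool both arrays with glucagon were below both without it, although the groups overlapped across pools. The lowest maximum of an array was 13.17, so these signals sit in the upper part of the scale. Averaged over GW4064, Sqstm1 differed by -0.35 (SE 0.11, 95% interval -0.62 to -0.09), which gave a limma adjusted p of 0.211, or 0.0852 with the block. Tfeb, the transcription factor of the set, had signals of 2.84, 2.86, 2.91 and 2.91 in experiment 1 and 2.73, 2.77, 2.82 and 2.99 in experiment 2. The filter level was 3.13 to 3.27, so its values are not above the dim part of each array and no treatment difference was drawn from them.

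**Figure D1:**
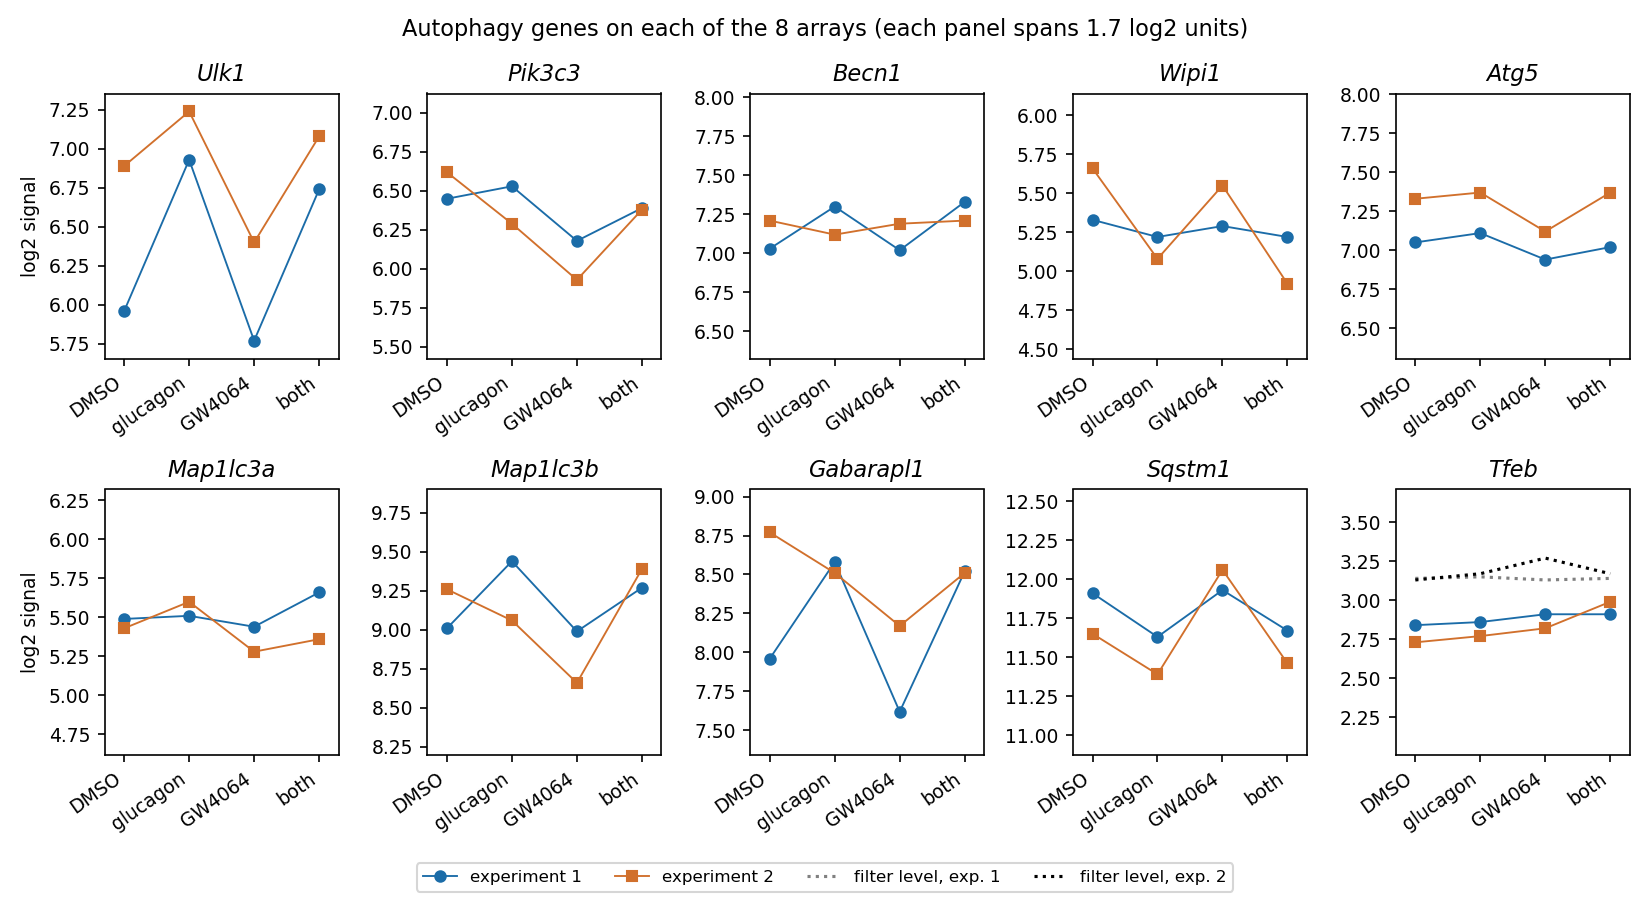
Log2 signal (vertical axis) of the 10 members under the 4 treatments, with 1 point per array and 1 line per experiment; dotted lines in the Tfeb panel mark the filter level of each array. Ulk1 runs from 5.77 to 7.24 with its glucagon arrays high in both pools, the 4 Atg5 values of experiment 2 lie above those of experiment 1, and Tfeb stays under its filter level.

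For glucagon against DMSO, 0 of the 9 tested members passed (smallest limma adjusted p = 0.840), and none had an unadjusted p under 0.05. Over all tested genes 0.116% passed, or 0.925% with the experiment as a block, where again 0 members passed. Member differences were positive for 6 and negative for 3, with a median of 0.09 against -0.01 over all tested genes. Averaged over GW4064, which sets 4 arrays with glucagon against 4 without, 0 of 9 members passed where 1.32% of genes did. With the block 1 member, Ulk1, passed, against 5.76% of genes. At an unadjusted p under 0.05 there were 3 members, Ulk1, Sqstm1 and Wipi1, and 5 with the block, which added Gabarapl1 and Map1lc3b. Of all 13845 tested genes, 2012 had such a p, and 3102 with the block. Leaving out 1 array at a time, without the block, moved the count of genes that passed for glucagon averaged over GW4064 between 25 and 702 and left 0 members past the threshold.

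The sign within matched pairs, arrays of 1 pool that differ in glucagon alone, gave another view of the same values. Ulk1, Atg5 and Map1lc3a were higher with glucagon in 4 of 4 pairs, which 15.4% of all tested genes were, and Wipi1 and Sqstm1 were lower in 4 of 4, which 16.7% were. For Ulk1 the pairs differed by 0.97 (without GW4064) and 0.97 (with it) in experiment 1 and by 0.36 and 0.68 in experiment 2. Sqstm1 differed by -0.28 and -0.26 in experiment 1 and by -0.26 and -0.61 in experiment 2, and Wipi1 by -0.11 and -0.07, then by -0.58 and -0.63. Pik3c3, Becn1, Map1lc3b and Gabarapl1 were each higher in 3 pairs and lower in 1, and for all 4 the odd pair was glucagon against DMSO in experiment 2. Complete separation of the arrays with and without glucagon, seen in Wipi1, was found in 13% of all genes. Of the cholangiocyte markers, Sox9 (-1.32) and Krt19 (-0.22) were lower on the arrays with glucagon, while Epcam (0) and Krt7 (0.05) were not. The part of these markers in the member differences was not tested.

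**Figure D2:**
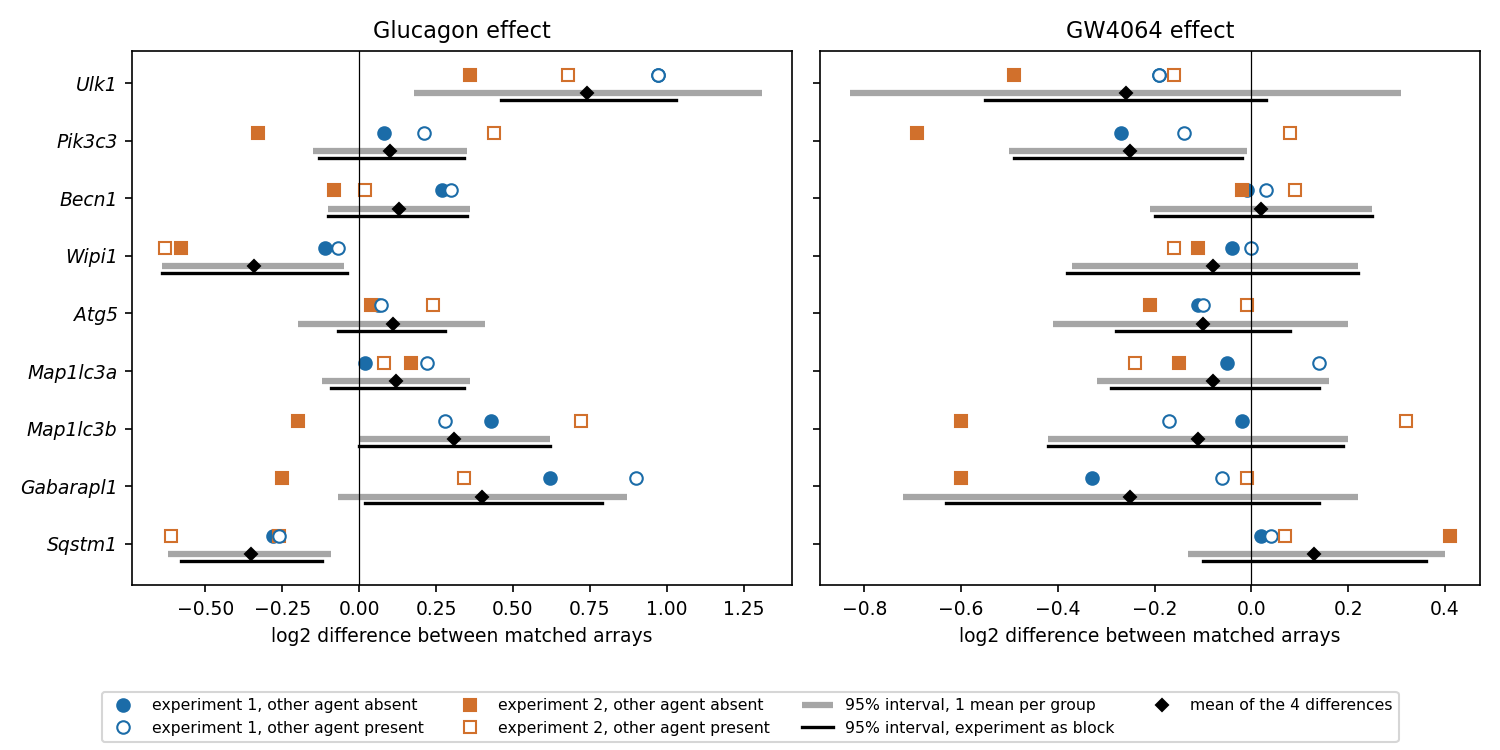
Log2 difference between matched arrays (horizontal axis) for the 9 tested members with glucagon (left) and with GW4064 (right); each point is 1 pair of arrays, diamonds are the mean of the 4 pairs, and bars are 95% intervals without (grey) and with (black) the experiment as a block. The 4 Ulk1 points on the left lie between 0.36 and 0.97, the Wipi1 and Sqstm1 points lie below 0, and the 4 pairs of Gabarapl1 run from -0.25 to 0.90.

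GW4064 against DMSO passed in 0 of 9 members and in 0% of all tested genes by limma, with 373 genes and 1 member, Pik3c3, at an unadjusted p under 0.05. Of the members 8 had a negative difference and 1, Sqstm1, a positive one, with a median of -0.16 against -0.03 over all genes. Centring every array on its median moved the median of all genes to -0.10 in this comparison. The differences were -0.34 (SE 0.34) for Ulk1, -0.47 (SE 0.28) for Gabarapl1, -0.31 (SE 0.19) for Map1lc3b and 0.21 (SE 0.16) for Sqstm1. In experiment 1 they were -0.19, -0.33, -0.02 and 0.02, and in experiment 2, with the GW4064 array that stood apart, -0.49, -0.60, -0.60 and 0.41. For these 4 members the pair with that array was thus the larger one. Without the DMSO array of experiment 2, and without the block, the Ulk1 difference turned to 0.12. It then sets the GW4064 arrays of both pools against the DMSO array of experiment 1 alone, so the difference between pools enters it. Within each pool the Ulk1 difference was negative (-0.19 and -0.49). When the other GW4064 array was left out, 406 genes and 0 members passed in GW4064 against DMSO. That fit sets this 1 array against the DMSO arrays and assumes that it varies like the other groups. In its calls the array and GW4064 cannot be told apart.

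With glucagon averaged out, GW4064 again passed in 0 members (0% of genes, 216 of them and 1 member at an unadjusted p under 0.05). Ulk1, Atg5 and Gabarapl1 were lower with GW4064 in 4 of 4 pairs, which 8.05% of genes were. Their mean differences were -0.26 (SE 0.24), -0.10 (SE 0.13) and -0.25 (SE 0.20). Sqstm1 differed by a mean of 0.13 (SE 0.11). Its pairs in experiments 1 and 2 differed by 0.02 and 0.41 without glucagon and by 0.04 and 0.07 with it.

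Both agents against DMSO passed in 0 members and in 0.123% of genes, with no member at an unadjusted p under 0.05 and a smallest limma adjusted p of 0.804. This comparison shares its DMSO arrays with those above. Adding GW4064 to glucagon passed in 0 members and 0% of genes, with 0 members and 90 genes at an unadjusted p under 0.05. Here 3 members had positive and 6 negative differences, with a median of -0.03. For the interaction, which asks whether the glucagon difference itself depended on GW4064, 0 members and 0% of genes passed, with 0 members and 149 genes at an unadjusted p under 0.05. Member interactions were positive in 7 and negative in 2, with a median of 0.11 against 0.03 over all genes, or 0.10 over all genes once arrays were centred on their medians.

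The 2 cell pools were also compared. Comparing experiment 2 with experiment 1 with the treatments held constant, 5.16% of all tested genes passed and 0 of 9 members did, although 2 members, Ulk1 and Atg5, and 3314 genes had an unadjusted p under 0.05. Ulk1 was higher in experiment 2 by 0.55 (SE 0.12, 95% interval 0.26 to 0.84, limma adjusted p = 0.0535) and Atg5 by 0.27 (SE 0.07, 0.09 to 0.45, adjusted p = 0.0933). Both were higher in experiment 2 under 4 of 4 treatments, as were 13.8% of all genes. The Ulk1 difference was 0.92 with DMSO, 0.31 with glucagon, 0.63 with GW4064 and 0.34 with both, and was thus larger on the arrays without glucagon. Ulk1 passed under 3 of 15 alternative settings, namely quantile normalization, a filter at the array median and an intensity trend in the variance. Endothelial markers were lower in experiment 2, as given above, by -0.06 (Kdr) to -1.02 (Lyve1), with 1 of 5 past the test. Hepatocyte markers had means of 10.69 to 10.85 against 10.35 to 10.52, with none past the test. Among these Hnf4a (0.81) differed most, Alb differed by 0.10, and Apob (-0.13) went the other way. Of the 6 Kupffer cell markers 2 were higher in experiment 2 by the test, the list's mean being 4.48 to 4.73 against 4.44 to 4.54. Cd68 (0.43) and Marco (0.38) differed most, Adgre1 and Vsig4 by 0.14 each, and Clec4f (-0.07) and Csf1r (-0.02) went the other way. The part of all these markers in the member differences was not tested, and what else differed between the experiments cannot be told apart.

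Gabarapl1 was higher in experiment 2 by 0.81 with DMSO and 0.55 with GW4064, and lower by only small amounts with glucagon (-0.07) and both agents (-0.02). Its glucagon difference was accordingly 0.62 and 0.90 in experiment 1, against -0.25 and 0.34 in experiment 2. A test of whether the glucagon difference depended on the experiment, added after these values had been seen and leaving 2 residual degrees of freedom, gave -0.72 for Gabarapl1 (SE 0.16, -1.12 to -0.32). The limma adjusted p of that test was 0.333. It was 0.395 for Wipi1 (-0.51, SE 0.15) and 0.469 for Ulk1 (-0.45, SE 0.17), and 0% of all genes passed.

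**Figure D3:**
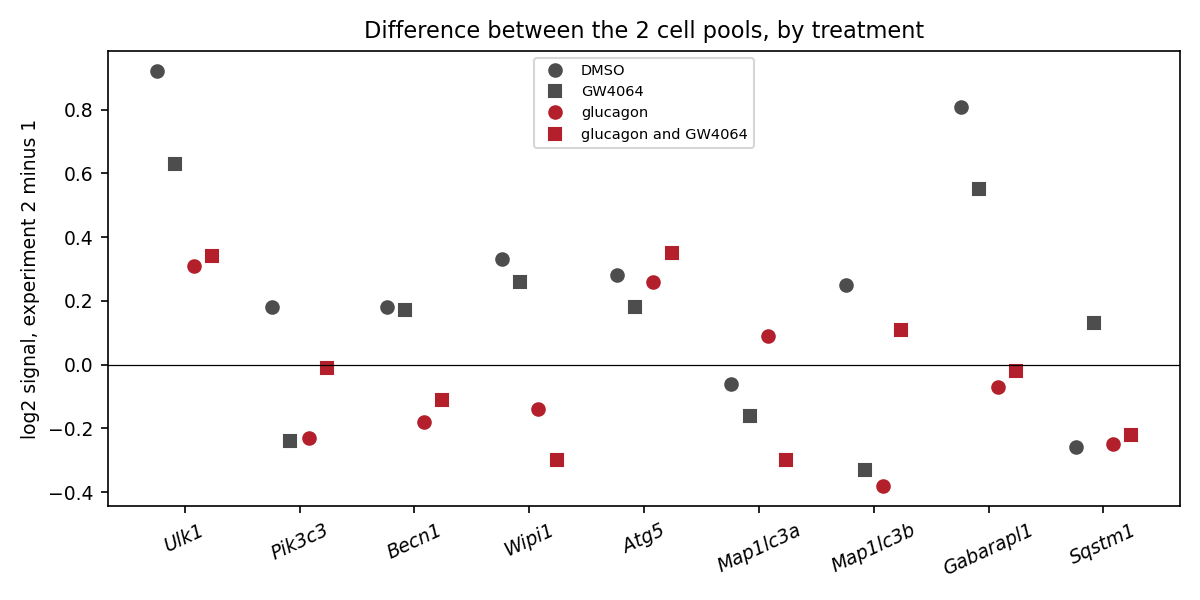
Log2 signal of experiment 2 minus experiment 1 (vertical axis) for the 9 tested members, with 1 point per treatment; grey marks arrays without and red arrays with glucagon. The 4 points of Ulk1 (0.31 to 0.92) and of Atg5 (0.18 to 0.35) lie above 0, while those of Gabarapl1 lie near 0 with glucagon and at 0.55 and 0.81 without.

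Beyond the members, lists of the pathway held 107 other genes, of which 102 were tested. For glucagon averaged over GW4064, 3 of the 102 rose and 0 fell, and with the experiment as a block 6 rose and 5 fell. Of all tested genes 1.32% passed, or 5.76% with the block, as given above. The 3 were Neu1, the lysosomal sialidase (0.80, SE 0.13, limma adjusted p = 0.0361), Lipa, the lysosomal acid lipase (0.52, SE 0.09, adjusted p = 0.0434), and Retreg1, a receptor for autophagy of the endoplasmic reticulum (0.78, SE 0.13, adjusted p = 0.0434). Neu1 had signals of 6.48 and 6.70 without and 7.51 and 7.33 with glucagon in experiment 1, and of 6.96 and 6.58 without and 7.61 and 7.48 with it in experiment 2. Its arrays with glucagon lay above all of those without, and 13% of all tested genes were separated in either direction. Retreg1 had signals of 10.23 and 10.09 against 11.17 and 10.95 in experiment 1, and of 10.62 and 10.40 against 11.14 and 11.17 in experiment 2, again without overlap. With 1 array left out the differences stayed at 0.68 to 0.93 for Neu1, 0.48 to 0.56 for Lipa and 0.68 to 0.87 for Retreg1, while the calls were often lost. Each of the 3 genes failed without the DMSO array of experiment 1 and without any 1 of the 4 arrays with glucagon, at adjusted p-values of 0.104 to 0.222. Lipa and Retreg1 also failed without the DMSO array of experiment 2 (0.0931 and 0.0525). All 3 passed with the block (adjusted p = 0.0134, 0.0192 and 0.00902).

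By role, the lysosome list stood beside the members with 18 of 19 tested genes positive for glucagon and a median difference of 0.21, against 0.00 over all genes, of which 49.1% were positive. With the block 4 of its genes rose, Gla (1.06), the alpha-galactosidase, and Atp6v1a (0.55), a subunit of the proton pump, joining Neu1 and Lipa. The cargo receptors had a median of 0.28, with 8 of 10 positive. Retreg1 rose, and Fundc1 (-0.52), a mitochondrial receptor, and Stbd1 (-0.75), which binds glycogen, fell with the block (adjusted p = 0.0284 and 0.0372). With the block Atg4c, a protease of the conjugation system, rose (0.67, adjusted p = 0.0388). Rubcn, an inhibitor of VPS34 complexes (-0.37, 0.0499), Mitf, a relative of TFEB (-0.46, 0.0447), and Epg5, a tether for fusion with lysosomes (-0.66, 0.0200), fell with it. The list medians were -0.07 for conjugation (3 of 9 genes positive) and 0.11 for the class III kinase complex (4 of 6). They were -0.03 for transcriptional regulators (4 of 10) and -0.02 for fusion with lysosomes (5 of 12).

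In the other lists no gene passed in either model. The ULK complex had a median of 0.04 over 4 genes, with Atg13, the scaffold of ULK1, at 0.44 (SE 0.23) and Atg101 at -0.07 (SE 0.09). Membrane supply had a median of 0.01 over 9 genes, with the lipid transfer protein gene Atg2b at 0.25 (SE 0.08) and the WIPI relative Wdr45b at -0.23 (SE 0.08). The remaining LC3 and GABARAP genes, Gabarap (0.03, SE 0.08) and Gabarapl2 (-0.04, SE 0.22), had small differences. Among 21 genes of mTORC1 and AMPK signalling the median was 0.10, with Prkab1, an AMPK subunit, at -0.36 (SE 0.11) and the GTPase gene Rragd at 0.83 (SE 0.28). For GW4064, with or without averaging, for both agents against DMSO or glucagon, for the interaction and for glucagon against DMSO, 0 of the 102 genes passed.

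**Figure D4:**
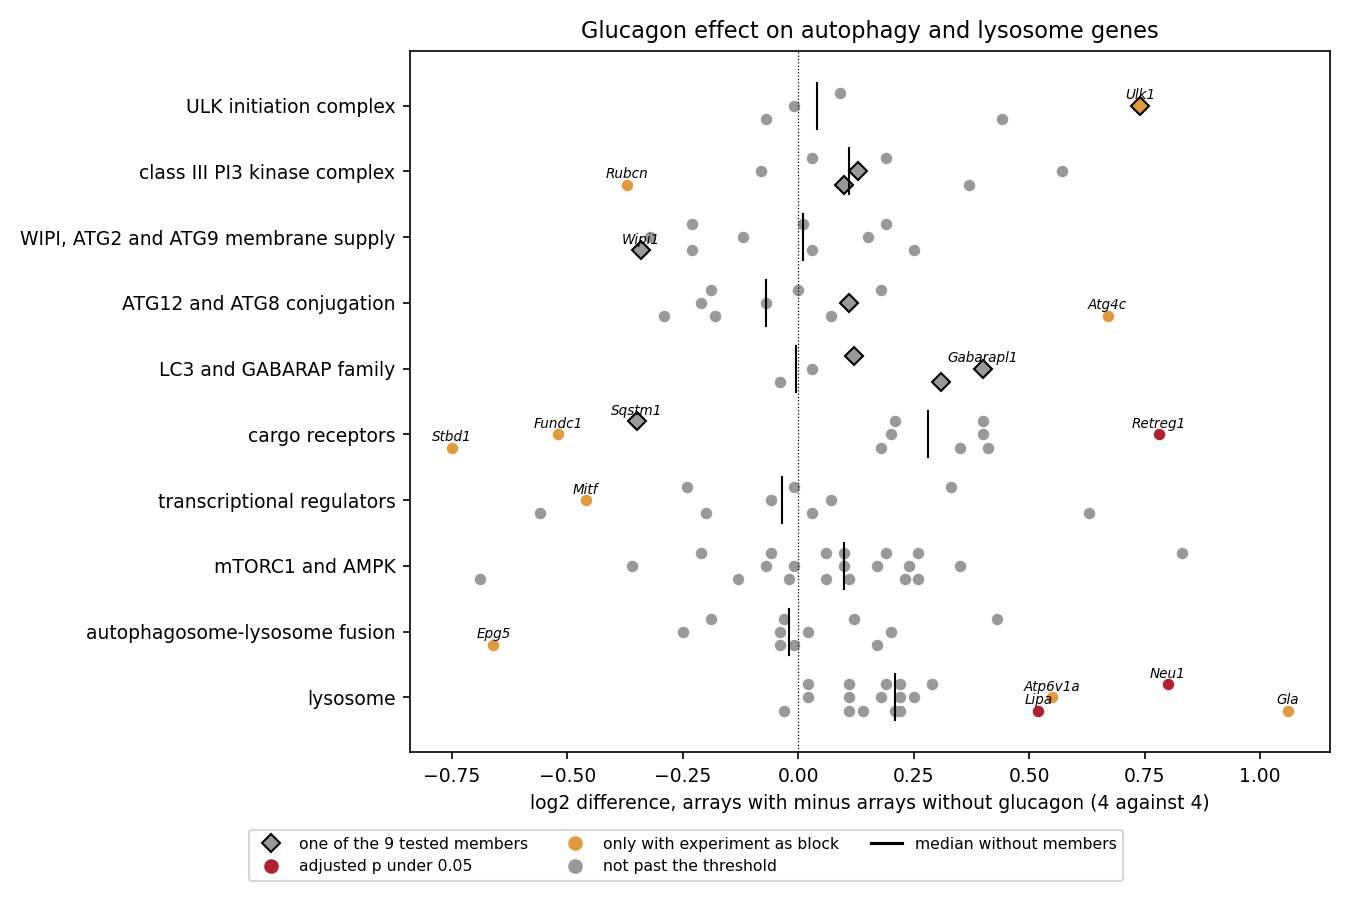
Log2 difference between the 4 arrays with and the 4 without glucagon (horizontal axis) for the 102 other pathway genes (circles) and the 9 tested members (diamonds), by role; colour shows which passed an adjusted p of 0.05 and lines are list medians without the members. Lysosome genes lie to the right of 0 except 1, with Gla at 1.06 and Neu1 at 0.80, and Ulk1, at 0.74, lies above the other genes of its list.

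Between the pools, 4 of the 102 pathway genes were higher in experiment 2 and 3 were lower by limma, where 5.16% of all tested genes passed. Bnip3, a mitophagy receptor (1.12, adjusted p = 0.0132), Ddit4 (1.24, 0.0181) and Sesn1 (0.70, 0.0475), which restrain mTORC1, and Prkab2, an AMPK subunit (0.51, 0.0400), were higher. Wipi2 (-0.46, 0.0474), Mitf (-0.47, 0.0450) and Epg5 (-0.66, 0.0226) were lower. Without 1 of the DMSO arrays 0 pathway genes passed, and without 1 of the glucagon or combined arrays 1 passed. The differences themselves stayed at 1.00 to 1.23 for Bnip3, 1.00 to 1.37 for Ddit4 and -0.76 to -0.60 for Epg5. Wipi2 moved apart from its relative Wipi1, whose difference between the pools was 0.04 (SE 0.13).

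The 3 members with the widest range over the 8 arrays were Ulk1, Gabarapl1 and Map1lc3b, and the genes with the most similar pattern were sought for each among all those tested. For Ulk1 they were Tmem219 (Pearson r = 0.994 over 8 arrays), Map2k1 (0.989) and Avpr1a (0.984). For Gabarapl1 they were Nrbf2 (0.966), Znfx1 (0.966) and Pnrc1 (0.965), Nrbf2 being a subunit of the class III kinase complex. For Map1lc3b they were Vpreb2 (0.988), Barhl2 (0.978) and A230045G11Rik (0.972). With each experiment centred on its own mean the order changed: Cpt2 (0.992) came before Tmem219 (0.992) and Avpr1a (0.990) for Ulk1, and Zfp248 (0.986), Grb7 (0.985) and Hdgfl2 (0.978) took the places beside Gabarapl1. For Map1lc3b, Vpreb2 (0.990) and Barhl2 (0.978) stayed and Fgd4 (0.985) came between them. Among the members themselves the closest pair was Ulk1 and Gabarapl1 (r = 0.910), and Ulk1 and Sqstm1 were the most opposed (-0.859). With the experiments centred, Atg5 and Sqstm1 were the most opposed (-0.894, against -0.860 for Ulk1 and Sqstm1). These values describe 8 arrays that share 4 treatments and 2 cell pools, and each set is the top of 13845 genes ranked on the same values.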

How the data were processed

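RNA of mouse primary hepatocytes was measured on 8 MoGene 2.0 ST arrays, in 4 groups of 2. Values are the authors' deposited log2 signals. GeneSpring was used per the labels. Version, background correction and normalization were not given in the sources used here. The log2 scale was read from the range of the values. Of 41345 probe sets, the platform annotation gives 1 symbol to 23521, several to 1814 and none to 16010. Those with 1 symbol were used if they exceeded the 40th percentile on 2 or more arrays, the highest mean standing for a gene with several. The number of arrays limits the precision.

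Groups were compared with limma 3.58.1 in R 4.3.3, with 1 mean per group (4 residual degrees of freedom), two-sided p-values and Benjamini-Hochberg adjustment over 13845 genes, at a threshold of 0.05. The fit with the experiment as a replicate block has 3. Per the labels each experiment used 1 cell pool, which pairs its arrays. Within experiments, departures from the group mean correlated at 0.350 to 0.620 over the 6 group pairs. Other alternatives were a random block, arrays left out, only the groups compared, quantile normalization, centring, other filters, the mean of probe sets and an intensity trend. The steps were tested on simulated data.

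The members, lists, rules and tests were chosen with earlier results of these data known. Pathway genes were named when past the threshold in either model, or as the 2 smallest p of a list with none for glucagon averaged over GW4064. Those that the same rule names for glucagon against DMSO are not printed.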

Additional observations from a re-analysis of the deposited data

Results flagged for a closer look

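For 3 members, both arrays without glucagon differed between the experiments in one direction and both arrays with glucagon in the other. The share of all genes with this pattern was not counted, so the 3 members have no reference. Experiment 2 minus experiment 1 averaged 0.68 without and -0.04 with glucagon for Gabarapl1, 0.29 and -0.22 for Wipi1, and 0.17 and -0.14 for Becn1. The limma test of the dependence of glucagon on the experiment, added after the values were seen, gave adjusted p-values of 0.333, 0.395 and 0.526, so none of the 3 passed. No cause was tested.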

How the results depend on the processing

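Over 1057 recomputed differences of single genes, 926 kept their direction and their side of the threshold, 73 no longer passed, 27 newly passed, and 31 changed sign. Most of the 1057 belong to differences that had no call to lose, so the 73 are not to be set against all of them. For glucagon averaged over GW4064, Neu1 passed in 12 of 17 alternatives, and Lipa and Retreg1 in 10 each. Between the experiments, calls held in 3 (Wipi2) to 13 (Bnip3) of 15 alternatives. For the paired analysis, the replicate block moved the count of genes called from 16 to 128 for glucagon against DMSO, from 17 to 102 for both agents against DMSO, and from 183 to 797 for glucagon averaged over GW4064, and changed the call of 1 member, Ulk1, and of 8 other pathway genes named above (11 called against 3). With the experiment as a random block these counts were 59, 48, 444 and 7 pathway genes. With the block and without the GW4064 array of experiment 2 they were 438, 342, 1454 and 17, with 1 member called, and 3 genes passed for GW4064 averaged over glucagon. With only the groups compared, 9 genes passed for glucagon and 9 for both agents against DMSO. For experiment 2 against experiment 1, 438 genes and 4 pathway genes passed without the treatments in the model, 1090 and 12 with an intensity trend, against 715 and 7, and 3 pathway genes passed after centring. There 1 member, Ulk1, was called with quantile normalization, with a filter at the array median and with the trend.

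Leaving out 1 array at a time gave 2 to 27 genes for glucagon against DMSO, 0 to 406 for GW4064 against DMSO, 2 to 24 for both agents against DMSO, 25 to 702 for glucagon averaged over GW4064 with 0 to 6 pathway genes, and 26 to 728 genes and 0 to 5 pathway genes for the experiments. With 1 array left out, the range for glucagon against DMSO was -0.09 to 0.19 for Atg5, -0.07 to 0.31 for Map1lc3b and -0.22 to 0.59 for Gabarapl1. With 1 array left out, the range for GW4064 against DMSO was -0.10 to 0.08 for Becn1, -0.24 to 0.09 for Wipi1 and -0.80 to 0.12 for Ulk1. With 1 array left out, the range for GW4064 averaged over glucagon was -0.02 to 0.07 for Becn1 and -0.16 to 0.01 for Wipi1. With 1 array left out, the range for experiment 2 against experiment 1 was -0.04 to 0.08 for Becn1, -0.06 to 0.15 for Wipi1 and -0.20 to 0.01 for Map1lc3b. Without leaving out an array, GW4064 against DMSO became 0.05 for Becn1 and 0.02 for Wipi1 with quantile normalization. GW4064 averaged over glucagon became -0.03 for Becn1 with the block and without the GW4064 array of experiment 2, and -0.01 after centring, which also took the difference between experiments to -0.03 for Becn1 and -0.01 for Wipi1. The ranges for the treatment comparisons come from fits without the block. With 1 array left out, the difference between pools therefore enters them. No cause of the sign changes was tested. With 2 pools a group, differences of the size seen in most members cannot be told from the spread, and probe sets near the filter level, such as that of Tfeb, give no usable difference.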
